A study of Mus musculus with 6 samples.

Results

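The immediate early genes examined here are Fos, Fosb, Jun, Junb, Jund, Atf3, Egr1, Nr4a1, Ier2 and Dusp1, a list that is often used to judge how strongly cells were activated while they were dissociated and sorted. They were found by matching the Ensembl gene identifiers of the deposited count table to gene symbols, which gave all 10 among 55401 genes. All 10 were among the 9196 genes that passed the filter on low counts. Levels are given as CPM, the count of a gene scaled to the total count of its library.

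The RNA came from wild-type mice whose ears, both of them, were painted with MC903 in ethanol to imitate atopic dermatitis; MC903 is an analogue of vitamin D that inflames the skin. The dose was 2 nmol in 10 µL daily from day 0 to day 6, and control mice were given the ethanol alone. Cells were sorted by flow cytometry as live, CD45+, lineage-negative, CD49b+ cells that carried FcεRIα or IgE, the gate for basophils, which are rare blood granulocytes that bind IgE. The 6 libraries, made by the Smart-seq2 method of full-length cDNA amplification, carry the letter A or B in their titles, 3 each. The sources used here do not say which letter stands for MC903, so differences are read as B minus A, not as an effect of treatment. Another label field also names 10x Genomics. The labels give blood as the tissue, while the series' own description speaks of ear skin. Age and sex of the mice were not stated. The labels do not tie each library to an animal of its own and speak of pooled RNA, so the p-values reflect how far these libraries scatter, which may be technical.

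Immediate early genes are switched on within minutes of a stimulus, without new protein synthesis, when kinases such as ERK, p38 and protein kinase A act on factors that already sit at their promoters. Fos and Jun proteins pair to form AP-1, a transcription factor, while Dusp1 encodes a phosphatase that switches the kinases off again. Enzyme digestion, warming and sorting are known to raise these transcripts in many cell types. No unsorted library was analysed here, so the part of sorting in the levels below was not tested.

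Total counts ran from 46137963 to 63956911 per library. The limit that a count of 0 allows, 3 counts, thus corresponds to 0.0469 to 0.0650 CPM (counting error only, with counts taken as independent). The libraries did not match the label equally well. Summed over 12 basophil markers, the level was 39.9 to 391 CPM in set A and 1502 to 3209 CPM in set B, and 5 markers (Prss34, Fcer1a, Cpa3, Cd200r3 and Itga2) were under 1 CPM in every A library. Of the other marker sums, that of neutrophils was also higher in every B library (2401 to 9830 CPM in A, 12572 to 23441 CPM in B, with Ly6g at 0 throughout). Sums for monocytes or macrophages (35613 to 42802 CPM in A, 25189 to 34330 CPM in B), T cells (952 to 1238 and 303 to 639 CPM), platelets (1436 to 1817 and 657 to 1146 CPM) and erythroid cells (270 to 630 and 109 to 179 CPM, with Alas2 and Slc4a1 at 0) were higher in every A library. Those for B cells, NK cells, dendritic cells, mast cells (Kit at 0), eosinophils (Prg2 and Epx at 0) and skin (Krt5, Krt14 and Col1a1 at 0) overlapped between the sets. Lyz2 alone supplied most of the monocyte or macrophage sum, at 32015 to 39756 CPM in A and 22600 to 29746 CPM in B. Ms4a6c, the next most abundant marker of that list, overlapped between the sets (747 to 1234 and 771 to 1712 CPM). The sets thus differ in the markers of several cell types, and a difference in an immediate early gene cannot be told apart from a difference in which cells were present. Likewise, fewer cells of a type and less RNA per cell cannot be told apart in bulk samples.

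The 10 genes fell into 6 that were abundant and even in every library and 4 that were low or erratic. Fos, Junb, Jund, Nr4a1, Ier2 and Dusp1 lay between 279.9 and 1842 CPM in all 6 libraries, and the highest library exceeded the lowest by 1.70-fold (Nr4a1) to 2.66-fold (Dusp1). Fosb, Jun, Atf3 and Egr1 stayed at or below 194 CPM, and their highest library exceeded the lowest by 26.9-fold (Egr1) to 91.3-fold (Fosb). Of the abundant genes, Dusp1 alone separated the sets, with every B library above every A library.

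**Figure D1:**
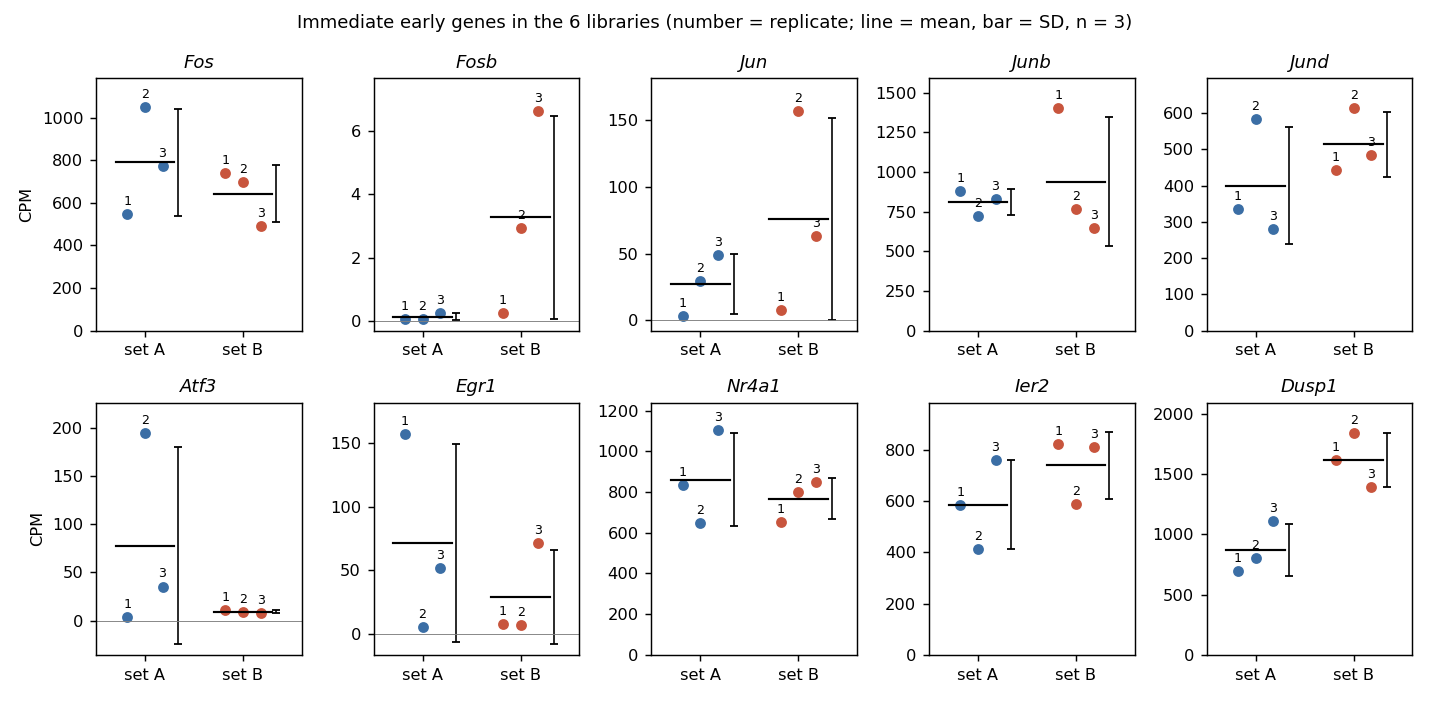
Level in CPM (linear axes, each gene on its own scale) of each immediate early gene in the 3 libraries of set A (blue) and of set B (red), with 1 numbered point per library, a line at the mean and a bar of ± 1 SD. Dusp1 (692 to 1107 CPM in A, 1389.9 to 1842 CPM in B) and Fosb (0.0726 to 0.260 CPM in A, 0.261 to 6.63 CPM in B) are the genes whose sets do not overlap, while Atf3, Egr1 and Jun scatter widely within a set.

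Dusp1 encodes the dual-specificity phosphatase MKP-1, which removes phosphates from p38, JNK and ERK kinases and so limits the response that induced it. Its level was 692, 804 and 1107 CPM in the A libraries and 1615, 1842 and 1389.9 CPM in the B libraries. The lowest B library thus stood above the highest A library. The means were 868 ± 215 CPM in set A against 1615 ± 226 CPM in B (SD, n = 3 each), and the fitted difference was 1.75-fold, or 0.81 on the log2 scale (SE 0.19). It ranked 58 among the 9196 genes by p (0.00486 before adjustment) and did not pass after Benjamini-Hochberg adjustment over all genes (edgeR quasi-likelihood test, adjusted p = 0.508). With the same filter DESeq2 called it (log2 difference 0.71, SE 0.23, adjusted p = 0.0263). DESeq2 with no filter did not call it (adjusted p = 1.00), but its SE there was 1.44 at the same log2 difference. That fit could not have called a difference of this size, so it says little about Dusp1. Neither edgeR nor limma-voom (adjusted p = 0.259) shared the DESeq2 call, which thus rests on the tool. The direction was the same in all 18 alternatives, with log2 differences from 0.71 to 0.96. That adds little, because the alternatives reuse the same 6 libraries, whose sets do not overlap.

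Several of the promoters carry letters of the cyclic AMP response element, the site bound by CREB, a factor that protein kinase A and other kinases activate. Promoter windows of 250 bases ending at the annotated start were taken from RefSeq (GRCm38.p6) for 8 of the 10 genes; Egr1 and Ier2 had no entry in the table used. Dusp1 is shown because its sets separated, Fos and Nr4a1 as abundant genes that did not separate, and Atf3 and Jun as erratic ones. Capitals mark the letters TGACG on either strand, which read CGTCA on the opposite strand, or the longer element TGACNTCA. The windows are chr17:26508473-26508722 on the minus strand for Dusp1, chr12:85473640-85473889 on the plus strand for Fos, chr15:101266596-101266845 on the plus strand for Nr4a1, chr1:191183334-191183583 on the minus strand for Atf3 and chr4:95052223-95052472 on the minus strand for Jun. All 5 are written 5′ to 3′ along the gene.
Dusp1: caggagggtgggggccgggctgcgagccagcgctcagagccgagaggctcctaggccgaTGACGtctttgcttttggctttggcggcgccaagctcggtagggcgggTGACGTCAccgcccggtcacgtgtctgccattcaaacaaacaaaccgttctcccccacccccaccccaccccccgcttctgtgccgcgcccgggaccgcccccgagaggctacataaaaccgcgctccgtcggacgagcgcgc
Fos: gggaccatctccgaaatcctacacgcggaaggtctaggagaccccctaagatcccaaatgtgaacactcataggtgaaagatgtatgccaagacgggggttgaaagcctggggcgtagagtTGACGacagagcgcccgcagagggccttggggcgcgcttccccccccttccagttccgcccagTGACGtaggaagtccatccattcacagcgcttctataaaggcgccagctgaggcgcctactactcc
Nr4a1: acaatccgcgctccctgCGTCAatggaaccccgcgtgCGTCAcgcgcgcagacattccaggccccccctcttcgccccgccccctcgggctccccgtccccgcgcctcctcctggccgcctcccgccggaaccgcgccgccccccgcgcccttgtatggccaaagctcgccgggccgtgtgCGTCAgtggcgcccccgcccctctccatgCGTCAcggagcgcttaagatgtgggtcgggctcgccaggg
Atf3: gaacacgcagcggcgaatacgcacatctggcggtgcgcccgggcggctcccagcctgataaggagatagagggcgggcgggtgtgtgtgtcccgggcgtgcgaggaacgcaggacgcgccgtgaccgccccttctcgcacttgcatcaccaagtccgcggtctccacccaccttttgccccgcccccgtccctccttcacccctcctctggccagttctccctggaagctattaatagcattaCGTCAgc
Jun: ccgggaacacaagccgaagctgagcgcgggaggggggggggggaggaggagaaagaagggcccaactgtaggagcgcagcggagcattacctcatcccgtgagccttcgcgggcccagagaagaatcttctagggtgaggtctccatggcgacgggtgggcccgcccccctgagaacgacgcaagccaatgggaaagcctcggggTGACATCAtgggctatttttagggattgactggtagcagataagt

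The complete element TGACGTCA was found in Dusp1, at 143 to 136 bases before the start, and in none of the other 7 windows; 1.55% of all 32851 RefSeq windows hold it. The form TGACNTCA, which includes the complete element, was found in Dusp1 and, as TGACATCA, in Jun, against 7.49% of all windows. The shorter TGACG, which lies within the complete element on both strands, was found in 6 of the 8 windows (Atf3, Fosb, Junb, Fos, Nr4a1 and Dusp1), against 17.8% of all windows; it was added to the search after the sequences had been seen. Those 6 windows had a GC content of 58.4 to 74.4%, above the median of 52.4% over all windows, and 27.1% of the 9198 windows in that GC range hold TGACG. Nr4a1 held 4 copies, Dusp1 3, counting both strands of its complete element, and Fos 2. The AP-1 site TGANTCA was in none of the 8 (6.75% of all windows), the CArG box, bound by serum response factor, in none (1.47%), and the EGR site GCGNGGGCG in Fosb and Nr4a1 (4.70%). These are matches of letters, searched on both strands, and no binding was measured. Sequence outside the windows was not searched, and Egr1 and Ier2 had no window. The absence of a CArG box or AP-1 site thus holds for the windows alone, and sites further upstream of Fos or the other genes were not tested. The window of Nr4a1 lies inside the longer gene model of GENCODE, and the RefSeq and GENCODE starts of Jund also differ.

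Within the Fos family, Fos was abundant and its sets overlapped. It measured 546, 1049.6 and 776 CPM in set A against 743, 698 and 489 CPM in set B. The lowest value was a B library and the highest an A library. The means were 791 ± 252 and 643 ± 135 CPM (SD, n = 3 each), a log2 difference of -0.39 (SE 0.28, edgeR adjusted p = 1.00) that was -0.13 without A replicate 2.

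Fosb, a close relative of Fos, was near the detection limit in set A. It had 4, 4 and 12 counts in A and 13, 173 and 424 counts in B, or 0.0726, 0.0757 and 0.260 CPM against 0.261, 2.93 and 6.63 CPM. The sets do not overlap, but the margin is 13 against 12 counts, and B replicate 1 sat with the A libraries rather than with the other B libraries. Counts of 4 were in excess over the whole table (5211 values, beside 819 of 3 and 660 of 5). The order of 13 and 12 thus carries little weight. The fitted log2 difference was 4.53 (SE 1.56, unadjusted p = 0.0246, edgeR adjusted p = 0.558), and DESeq2 with the filter called it (adjusted p = 0.00771) while DESeq2 with no filter did not. Per kilobase of exon, Fosb made up 0.00272 to 0.508% of the Fos and Fosb transcripts.

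Among the Jun genes, Junb and Jund carried nearly all of the signal. Junb, a Jun relative that often restrains Jun, measured 878, 721 and 832 CPM in set A against 1403, 767 and 647 CPM in set B, with B replicate 1 the highest and the other B libraries within or below the range of A. Its log2 difference was 0.10 (SE 0.32, edgeR adjusted p = 1.00), and without B replicate 1 it was -0.32. Jund, which many resting cells express, measured 336, 583 and 279.9 CPM in set A against 443, 614 and 486 CPM in set B, again overlapping (log2 difference 0.26, SE 0.34, edgeR adjusted p = 1.00, and 0.03 without A replicate 3 or 0.62 without A replicate 2).

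Jun itself, the best-known partner of Fos, was low and varied widely between libraries of the same set. It measured 3.43, 29.1 and 48.8 CPM in set A against 7.28, 157 and 63.0 CPM in set B. Replicate 1 was the lowest library of each set, but the replicate numbers are not known to pair the libraries. The log2 difference of 1.43 was smaller than its SE of 1.59 (edgeR adjusted p = 1.00), and it was 0.36 without B replicate 2 and 2.11 without A replicate 3. Per kilobase of exon, Junb formed 44.4 to 69.5% of the summed Jun, Junb and Jund level, Jund 30.3 to 52.0% and Jun 0.184 to 6.56%.

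The ratio of the Fos family to the Jun family, per kilobase, was 0.398, 0.664 and 0.605 in A and 0.360, 0.396 and 0.353 in B. Every A library was above every B library, though A replicate 1 and B replicate 2 nearly touched. The means were 0.556 ± 0.140 and 0.370 ± 0.0230 (SD, n = 3 each), a description with no test.

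Atf3 and Egr1 each peaked in a different A library. Atf3, a stress-responsive factor of the ATF family, measured 3.41, 194 and 35.4 CPM in set A against 10.6, 9.37 and 7.80 CPM in set B. The B libraries lay close together and inside the range of A, and A replicate 2 held the high value. The log2 difference was -3.15 (SE 1.75, edgeR adjusted p = 1.00), and without A replicate 2 it was -1.09.

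Egr1, a zinc finger factor induced through ERK, measured 157, 5.83 and 51.7 CPM in set A against 8.08, 6.76 and 71.2 CPM in set B. A replicate 1, the highest for Egr1, was the lowest for Atf3, and A replicate 2, the highest for Atf3, was the lowest for Egr1. The log2 difference of Egr1 was -1.44 (SE 1.70, edgeR adjusted p = 1.00), and it was 0.0013 without A replicate 1 and -3.38 without B replicate 3. Of the 45 pairs of immediate early genes, Atf3 and Egr1 differed most in their course over the 6 libraries, with a root mean square difference of 3.11 between their centred log2(CPM + 1) values. The measure is not scaled for spread, so erratic genes score as far apart more readily than even ones.

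Nr4a1 and Ier2 were abundant and even. Nr4a1, an orphan nuclear receptor induced by calcium and kinase signals, measured 833, 648 and 1102 CPM in set A against 654, 799 and 850.3 CPM in set B, with all B libraries inside the range of A (log2 difference -0.26, SE 0.24, edgeR adjusted p = 1.00, and -0.10 without A replicate 3 or -0.42 without A replicate 2). Ier2, a nuclear protein of the early response, measured 584, 415 and 760.5 CPM in set A against 822, 589.8 and 810.0 CPM in set B. Its sets overlapped through A replicate 3 and B replicate 2 (log2 difference 0.25, SE 0.29, edgeR adjusted p = 1.00, and 0.06 without A replicate 2). Nr4a1 and Ier2 were the closest pair of the 45, with a root mean square difference of 0.337. That measure is a description over 6 libraries that share their depth and cell content. It is not scaled for spread, so pairs of even genes score as close whether or not they move together.

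Against the whole transcriptome, the 10 genes showed no call with the edgeR test, where 0.0217% of all tested genes (2 of 9196, the basophil proteases Mcpt8 and Prss34, both higher in B) were called. Before adjustment 2 of 10, Dusp1 and Fosb, had a p under 0.05, both higher in B, against 6.36% of all tested genes (5.05% higher and 1.32% lower). DESeq2 called the same 2 genes, against 6.47% of all (5.34% higher and 1.13% lower). DESeq2 with no filter called 0 of 10, against 6.56% (6.01% higher and 0.545% lower), and limma-voom called 0 of 10, against 2.2% (2.12% higher and 0.0761% lower). In the unfiltered DESeq2 fit the SEs of the 6 abundant genes were 1.44 to 1.48, beside 0.23 to 0.37 with the filter. Differences as small as theirs could not be called there. The sets did not overlap in 2 of 10 genes, both with B above A, where 10.2% of all tested genes had that order and 3.91% the opposite one. These shares stand beside a count of 2 among 10 genes, and nothing particular to immediate early genes is read from it. Their median log2 difference was 0.17, with 6 above and 4 below 0, beside -0.06 for all tested genes. That order depends on the fit: the medians of the 10 and of all genes were 0.05 and 0.87 with limma-voom, 0.14 and 0.28 with no filter, and 0.15 and 0.48 with the replicate block.

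**Figure D2:**
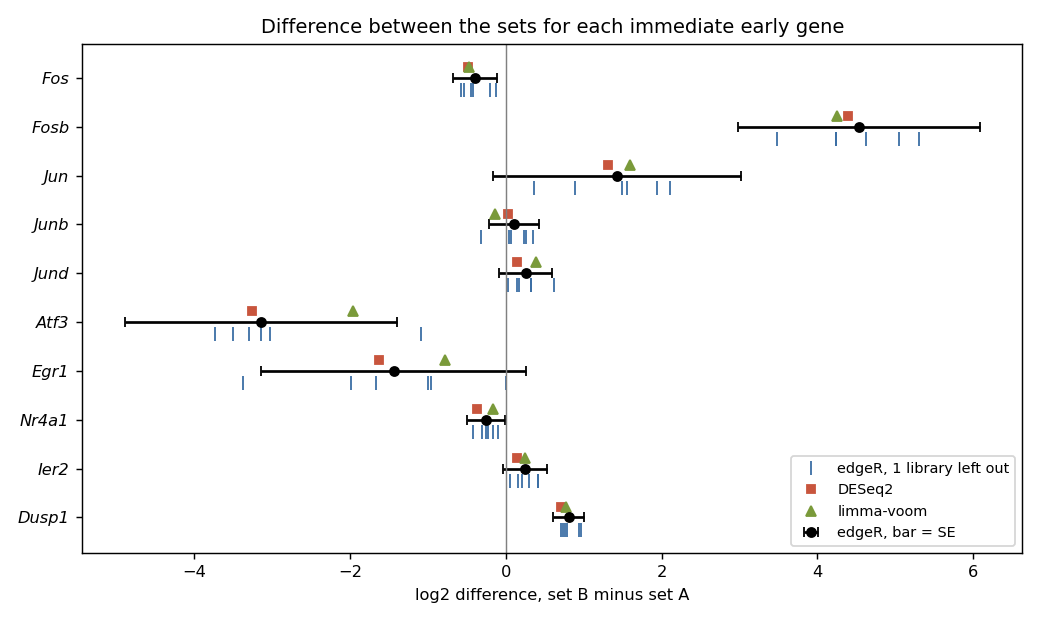
Fitted log2 difference, set B minus set A, of each immediate early gene from edgeR (black points, bars of ± 1 SE), from DESeq2 (squares), from limma-voom (triangles) and from edgeR with 1 library left out (blue ticks), with a vertical line at 0. Dusp1 has the smallest SE (0.19) at a difference of 0.81. The bars of Jun (1.43 ± 1.59), Junb (0.10 ± 0.32), Jund, Ier2 and Egr1 cross 0, and that of Fosb (4.53 ± 1.56) is wide.

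The evenness of the 6 abundant genes matched their level. The SD of log2(CPM + 1) within the sets was 0.283 for Dusp1, 0.305 for Nr4a1, 0.364 for Ier2, 0.404 for Fos, 0.424 for Jund and 0.427 for Junb. Among the 525 tested genes with a mean of at least 300 CPM the median was 0.42, and from 25.9% (Dusp1) to 50.3% (Junb) of those genes had a lower SD. The spread of the 6 genes was thus near or below the middle of transcripts of their level. Fosb (0.933), Atf3 (1.94), Jun (2.02) and Egr1 (2.06) were more variable, and the median over all tested genes, which are mostly lower, was 1.83.

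**Figure D3:**
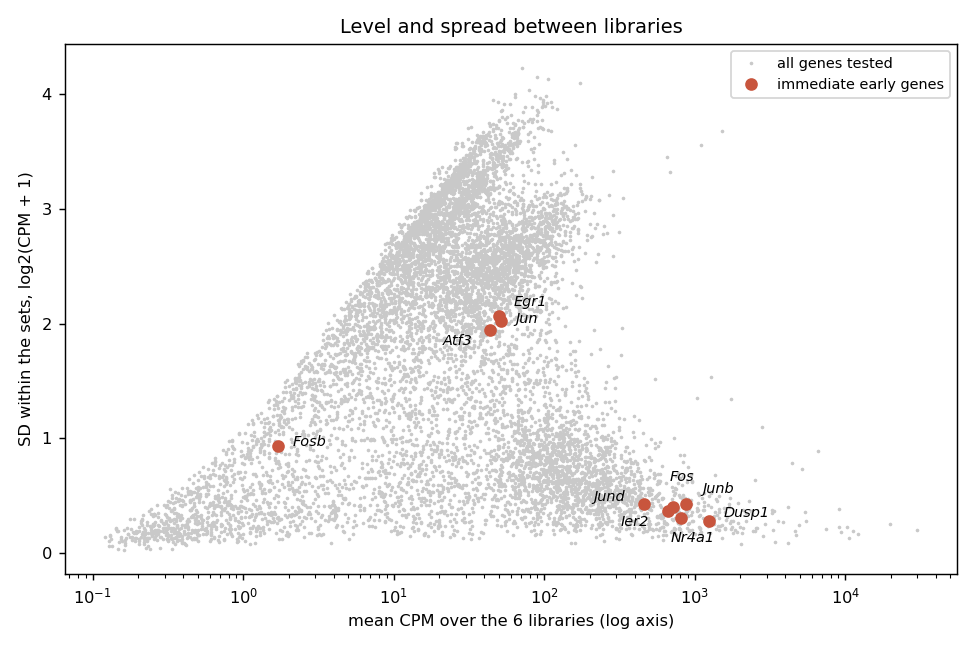
Mean CPM over the 6 libraries (log axis) against the SD of log2(CPM + 1) within the sets, with 1 grey point per tested gene and the immediate early genes in red. Dusp1, Nr4a1, Ier2, Fos, Jund and Junb lie in the dense band of abundant, even genes at SDs of 0.283 to 0.427, whereas Atf3, Jun and Egr1 lie near 2.

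Per kilobase of exon (GENCODE M21), the levels ran from Ier2 at 436 ± 106 CPM per kilobase (SD, n = 6), through Junb (380 ± 118), Dusp1 (375 ± 137), Fos (305 ± 84.2) and Jund (274 ± 79.2), to Nr4a1 (232 ± 47.4). Atf3 (20.2 ± 34.7), Jun (16.1 ± 17.8), Egr1 (11.2 ± 13.2) and Fosb (0.273 ± 0.425) followed. This order pools the sets and differs within each. Dusp1 stood at rank 4 in A, at 262 ± 64.8 CPM per kilobase, behind Ier2 (385 ± 114), Junb (352 ± 35.1) and Fos (336 ± 107). In B it was level with Ier2 at the top (488 ± 68.2 and 487 ± 85.8), followed by Junb (408 ± 177; SD, n = 3 each). Within the first 6 of the pooled order, no neighbour in this order differed beyond the spread of their ratio over the libraries. The steps from Nr4a1 to Atf3 and from Egr1 to Fosb exceeded that spread, at mean log2 ratios of 4.92 ± 2.14 and 6.24 ± 3.43, and held in 6 of 6 libraries. The order of Atf3, Jun and Egr1 did not hold beyond it.

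Summed over the 10 genes, the level was 4033, 4449 and 4993 CPM in set A against 5706, 5485 and 4821 CPM in set B, or 0.403 to 0.571% of all counts. The Wilson 95% interval of the lowest share, A replicate 1, was 0.402 to 0.405%, and that of the highest, B replicate 1, was 0.568 to 0.573%. Both cover counting error only and take counts as independent. A replicate 3 exceeded B replicate 3, so the sets overlapped, and the means were 4492 ± 481 and 5337 ± 461 CPM (SD, n = 3 each), given with no test. The 6 abundant genes supplied 94.8 to 99.5% of each sum. Mitochondrial transcripts took 2.34, 3.88 and 2.21% of the counts in A and 1.73, 1.85 and 1.96% in B, and without them the means were 4622 and 5437 CPM. Whether RNA quality has a part in the difference was not tested.

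Dusp1 also took a larger portion of the family in set B. Per kilobase, it made up 13.8 ± 2.16% of the summed level of the 10 genes in A and 22.01 ± 2.61% in B (SD, n = 3 each), with every B library above every A library. Relative to Fos it measured 1.27, 0.766 and 1.43 in A and 2.17, 2.64 and 2.84 in B, as ratios of CPM, and relative to Nr4a1 0.832, 1.24 and 1.00 in A and 2.47, 2.31 and 1.64 in B. Neither pair of ranges overlapped. Relative to Junb, Jund or Ier2 the ranges did overlap, so the separation of Dusp1 depends on which abundant gene it is set against. Basophil and neutrophil marker sums were also higher in every B library, and their part in the Dusp1 difference was not tested.

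**Figure D4:**
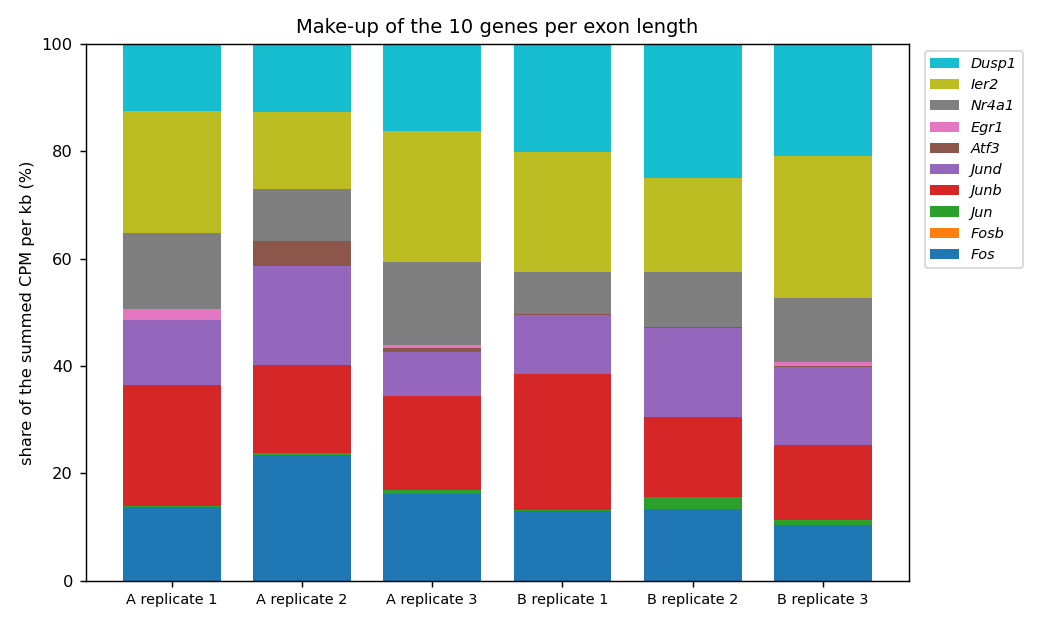
Share of each immediate early gene in the summed CPM per kilobase of the 10 genes (percent, stacked bars from 0), 1 bar per library. Dusp1 takes 12.4 to 16.3% in the A libraries and at least 20.2% in each B library, while Fosb, Jun, Atf3 and Egr1 are thin bands in every bar.

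Reads from overlapping genes could enter some of these counts, because the sources used here do not say whether counting used strand. Exons of Dusp1 overlap those of Ergic1 on the other strand, which measured 0.218, 24.6 and 127 CPM in set A against 0.442, 83.4 and 43.7 CPM in set B, an order unlike that of Dusp1. Junb overlaps Prdx2, which measured 187, 155 and 206 CPM in set A against 313, 235 and 134 CPM in set B. Prdx2 and Junb were both highest in B replicate 1 and both lowest in B replicate 3, and their reads cannot be told apart where they overlap. The antisense partners of Jun (Junos) and Jund (Gm11175) were at 0 in all libraries.

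The genes of 5 related lists gave the setting of the 10, and none of the 90 that were tested, out of 117 listed, was called by edgeR. Before adjustment, 4 had a p under 0.05 and were higher in B, and 2 had one and were lower, beside 5.05% and 1.32% of all tested genes. DESeq2 with the filter called 5 as higher in B and 1 as lower, beside 5.34% and 1.13% of all, and 2 were called as higher by limma-voom, beside 2.12% of all. These counts are near the shares of the whole table. Creb1, Atf1, Elk4, Ier3, Crem, Dusp14, Hspa1a and Hspa1b were picked once their values had been seen, and so were the genes named for having few or no counts; the other related genes are among the 4 most abundant of their list.

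Of 20 other Fos and Jun relatives, the basic leucine zipper factors that pair with or compete with AP-1, 15 were tested, with a median log2 difference of -1.06 (4 above and 11 below 0). Nfe2l2, the master factor of the oxidative stress response, was the most abundant, at 142 to 796 CPM in set A against 159 to 409 CPM in B. Atf4 (18.7 to 185 and 58.3 to 62.9 CPM), Batf (0.381 to 51.1 and 38.5 to 157 CPM) and Mafg (5.79 to 94.9 and 21.5 to 49.96 CPM) followed, and all 4 overlapped between the sets. Fosl1, Batf2 and Atf5 had no count in any library.

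The cyclic AMP responsive factors Creb1 and Atf1 had almost all of their counts in set B. Every B library was above every A library for both, an order shared by 10.2% of all tested genes. Fewer genes had any count in the A libraries (9242, 9845 and 11281) than in the B libraries (11141, 12176 and 14066), apart from an overlap of A replicate 3 with B replicate 1, and the part of detection in these zeros was not tested. Creb1 encodes CREB, whose binding to the element printed for Dusp1 was not measured. Creb1 measured 0, 0.0378 and 0.0867 CPM in set A against 11.8, 55.4 and 20.7 CPM in set B (unadjusted p = 0.0125, edgeR adjusted p = 0.508). Its adjusted p was 3.33e-06 with DESeq2 and 0.0379 with limma-voom. Atf1, its close relative, had no count in A and measured 1.37, 74.8 and 16.5 CPM in B (edgeR adjusted p = 0.508, DESeq2 adjusted p = 4.75e-06). With limma-voom Atf1 did not pass (adjusted p = 0.0570).

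Of 23 other early transcription factors, 14 were tested, with a median log2 difference of -0.12. Cebpb, a factor of myeloid gene expression, was the most abundant and even, at 891 to 1173 CPM in set A against 894 to 1194 CPM in B. Id2 (355 to 761 and 306 to 501 CPM), Klf6 (238 to 513 and 373 to 696 CPM) and Ier5 (195 to 497 and 63.1 to 312 CPM) overlapped between the sets. The closest relatives of Egr1 and Nr4a1 were all but absent. Egr2, Egr3 and Nr4a2 had 4 counts each in all 6 libraries together, and Nr4a3 and Egr4 had none, while Nr4a1 measured 648 to 1102 CPM.

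Of 27 feedback regulators and mRNA decay factors, 21 were tested, with a median log2 difference of -0.49. Rgs2, which damps G protein signals, measured 772 to 1290.1 CPM in set A against 590.0 to 1040.0 CPM in B, and Btg1, an antiproliferative gene, measured 570.3 to 745 and 656 to 891 CPM. Zfp36, which encodes tristetraprolin, a protein that speeds decay of AU-rich mRNAs such as that of Fos, measured 741, 837 and 626 CPM in set A against 408, 572 and 521 CPM in set B. Every A library was above every B library, the opposite order to Dusp1, which 3.91% of all tested genes had. The log2 difference of Zfp36 was -0.66 (SE 0.24, unadjusted p = 0.0311, edgeR adjusted p = 0.617). Btg2, a growth-arrest gene, had the order of Dusp1, which 10.2% of all tested genes shared. It measured 193, 208 and 145 CPM in set A against 273, 314 and 227 CPM in set B (log2 difference 0.46, SE 0.36, edgeR adjusted p = 1.00).

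Of 18 chaperone and ubiquitin genes that tissue dissociation is known to raise, 17 were tested, with a median log2 difference of -0.14. Ubb, a ubiquitin gene, measured 3792, 4550 and 3406 CPM in set A against 5345, 5244 and 5771 CPM in set B, with no overlap (log2 difference 0.37, SE 0.16, edgeR adjusted p = 0.837). Of all tested genes, 10.2% had every B library above every A library. Hspa8 (1188 to 2093 and 1230 to 1663 CPM) and Hsp90ab1 (407 to 990.4 and 454 to 619.6 CPM) overlapped. The inducible heat shock genes Hspa1a and Hspa1b were near 0 in most libraries. Hspa1a measured 57.5 CPM in B replicate 1, 8.29 CPM in B replicate 3 and at most 1.11 CPM elsewhere. Hspa1b measured 10.1 and 7.05 CPM in those libraries and at most 0.434 CPM elsewhere. These 2 genes are near-identical copies, so their split of reads is uncertain.

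Of 29 kinases and factors upstream of the immediate early genes, 23 were tested, with a median log2 difference of -0.26. Map2k1 (177 to 413 CPM in A, 227 to 426 CPM in B) and Rps6ka1 (135 to 254 and 111 to 148 CPM), of the ERK cascade, and Map2k3 (142 to 262 and 18.4 to 164 CPM), of the p38 cascade, overlapped between the sets. Elk4, a partner of serum response factor at CArG boxes, measured 0, 0 and 0.0867 CPM in set A against 37.1, 27.5 and 30.8 CPM in set B (unadjusted p = 0.0155, edgeR adjusted p = 0.508). Its adjusted p was 7.38e-06 with DESeq2 and 0.0310 with limma-voom. Every B library was above every A library, an order shared by 10.2% of all tested genes. The part of detection in the zeros of Elk4 was not tested. Srf, which encodes serum response factor, had 61 counts in all libraries together. Elk1 and Rps6ka3 had no count in any library.

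**Figure D5:**
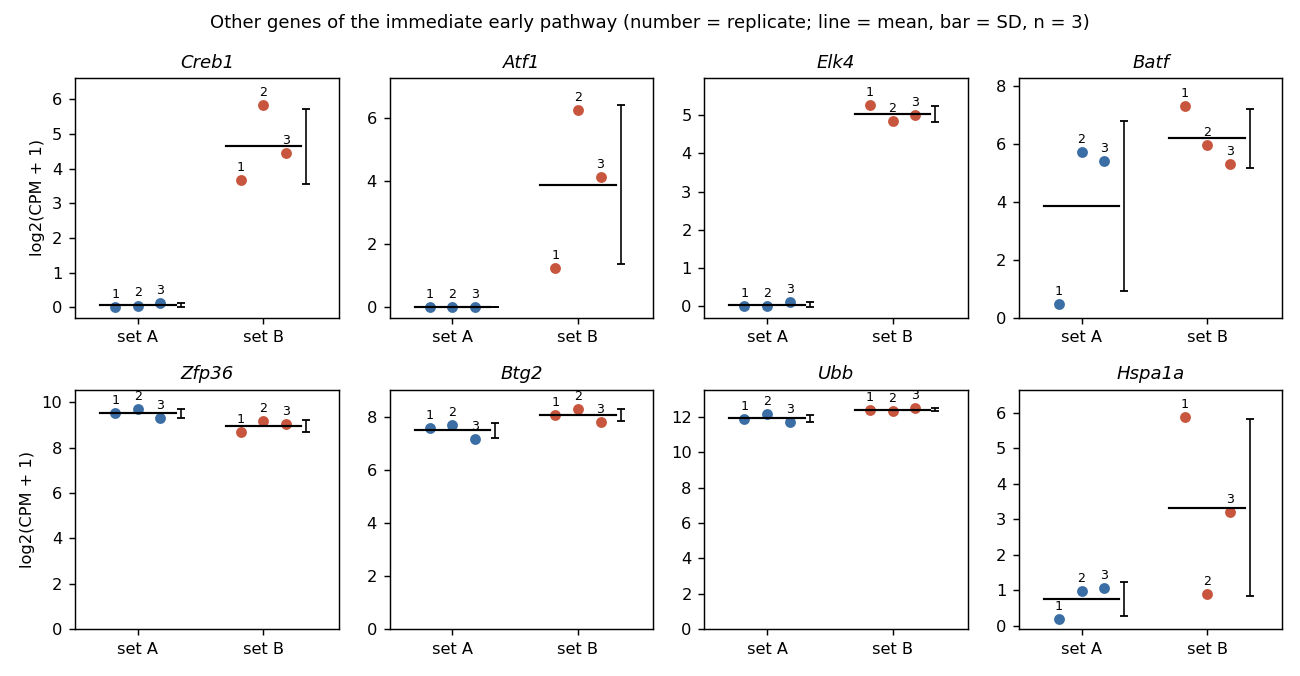
Level as log2(CPM + 1) of 8 related genes in the 3 libraries of set A (blue) and of set B (red), with 1 numbered point per library, a line at the mean and a bar of ± 1 SD. Zfp36 lies higher in A (626 to 837 CPM) than in B (408 to 572 CPM), Ubb and Btg2 lie higher in B, and Creb1, Atf1 and Elk4 are at or near 0 in every A library.

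Among 1792 genes outside the list with a mean of at least 100 CPM, those whose course over the 6 libraries was most like the summed level of the 10 were Hmgb2 (root mean square difference of centred log2(CPM + 1) 0.0596), Itm2b (0.0630), Sat1 (0.0817), Rnaset2b (0.104) and Lcp2 (0.123). The chromatin protein gene Hmgb2, the closest, measured 513, 577 and 619.8 CPM in set A against 804, 691 and 634 CPM in set B. None of these 5 is an immediate early gene of the lists used here. The likeness is a description over 6 libraries. Its measure is not scaled for spread, and the summed level varied little, so even genes score as near more readily than erratic ones.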

How the data were processed

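Raw counts per gene in 6 Smart-seq2 libraries (paired reads of 150 bases, per the labels' protocols) were used as the authors deposited them. The submitters' processing notes name cutadapt 1.9, HISAT2 2.2.1 and DESeq2; the sources used here do not give their roles, the genome build or the counting settings. Gene symbols and exon lengths came from GENCODE M21 and matched 55141 of 55401 identifiers.

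CPM was computed from column totals. All genes passing filterByExpr (9196) were fitted with edgeR 4.0.16 (TMM, quasi-likelihood, robust), set B against set A, with Benjamini-Hochberg adjustment and a threshold of 0.05. Alternatives were DESeq2 1.42.0, limma-voom 3.58.1 weighting samples by quality, a fit without the robust option, scaling by RLE or by library size, a stricter filter or none, each library left out, and the replicate number as a block. Counts divided by 4, means of at least 100 or 300 CPM, and DESeq2 with no filter were added after seeing the data. The edgeR, DESeq2 and limma scripts were tested on simulated data. The genes and lists were chosen with earlier results of these data known. Named genes were the 10 themselves, the 4 with the highest mean CPM of each related list, any gene called, and the 5 nearest in course; others were chosen after their values were seen. Of low counts, 4 was commoner (5211 values) than 3 (819) or 5 (660), and the cause was not tested. Promoters were RefSeq's. Some genes that these rules name are not reported here.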

Additional observations from a re-analysis of the deposited data

How the results depend on the processing

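Over 170 recomputed values for the 10 genes, 165 kept their direction and side of the threshold. Of the others, Fosb and Dusp1 passed with DESeq2, so that it called 2 of the 10, and 3 changed sign: Junb was -0.14 with limma-voom, and over the libraries left out Junb ran from -0.32 to 0.35 and Egr1 from -3.38 to 0.0013. The median log2 difference of the 10 ran from -0.0078 (without B replicate 1) to 0.27 over the libraries left out. Genes called over the whole table depended on the tool: 491 higher and 104 lower in B with DESeq2, 1093 and 99 with DESeq2 and no filter, 195 and 7 with limma-voom, and 5 and 7 among genes with a mean of at least 300 CPM, where edgeR called 2 and 0. With each library left out edgeR called 0 to 1 higher. The replicate block called 0 genes and none of the 10. Same-numbered libraries had correlations of deviations of 0.00999, -0.0244 and 0.00698, within the range of the other pairs (-0.0344 to 0.0339). Not every library correlated best with its own number. These values show no pairing by number but cannot exclude it. Between any 2 libraries, 42.8 to 62.3% of tested genes differed over 2-fold, and such scatter could hide a shared source. The median of all genes moved by -0.10 with RLE or DESeq2, 0.11 with library size alone, 0.33 with no filter, 0.54 with the block and 0.93 with limma-voom. Fosb was dropped by the stricter filter, by the counts divided by 4 and by both CPM minimums.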

Other observations

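Some inducible genes of the related lists, picked once their values had been seen, were detected in B replicates 1 and 3 but hardly elsewhere. Crem, an inducible cyclic AMP responsive factor, measured 55.8 CPM in B replicate 1, 7.22 CPM in B replicate 3 and at most 0.173 CPM elsewhere. Dusp14, a phosphatase related to Dusp1, measured 58.4 and 9.69 CPM in those libraries and had no count in the other 4. Ier3, an early response gene, measured 61.9 and 9.57 CPM there and at most 0.975 CPM elsewhere. With Hspa1a and Hspa1b, these are the 5 of 117 related genes that reached 5 CPM in this pair and stayed under 2 CPM in the other 4 libraries, bounds set after the values were seen. Of the 18179 genes with a count in any library, 215 met the same bounds for this pair, and between 20 and 373 did for the 15 possible pairs of libraries. This pair held the most related genes of the 15 pairs, and Hspa1a and Hspa1b are near-identical copies. Nothing is therefore read from the count of 5.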
